A study of Isodiametra pulchra with 2 samples.

Results

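The cells with the highest RNA content were studied in a suspension of all cells of *Isodiametra pulchra*, a small marine acoel worm. They were the barcodes with the largest totals of unique molecular identifiers (UMIs, 1 per captured RNA molecule), called high-UMI barcodes here. A barcode of library 1 belonged to them with at least 500 UMIs and a barcode of library 2 with at least 2691 UMIs. These were 931 barcodes of library 1 and 616 of library 2, 1547 in all, among 7758 barcodes at or above the lowest total compared (20.8% of 4483 in library 1 and 18.8% of 3275 in library 2). Barcodes with any UMI numbered 1731863. Within each library the high-UMI barcodes were set against comparison barcodes, whose totals ran from 332 UMIs in library 1 (2648 barcodes) and 2054 UMIs in library 2 (2308 barcodes) down to these values divided by 2.

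Both libraries came from wild-type hatchlings fed the diatom Nitzschia curvilineata and kept at 20 °C with 12 h of light and 12 h of darkness. Cells were dissociated in collagenase at 1 mg/ml for 1 h at 25 °C, and polyadenylated RNA was captured in droplets with 10x Genomics 3′ kits, of which the labels name versions 2 and 3. The kit of each library is not stated consistently in the labels. The deposited barcode lists do differ, with 737280 barcodes for library 1 and 6794880 for library 2. Nothing says how many animals were pooled or whether the libraries came from separate dissociations. The libraries form 1 group, so the design holds no treatment. Kit, depth and library cannot be told apart, and p-values measure only the spread between these libraries, which may be technical.

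In droplet sequencing a cell's UMI total follows the RNA the cell held, and also the share of that RNA that was captured and sequenced. Large or transcriptionally active cells hold more RNA than small resting ones. A droplet with more than 1 cell also gives a high total, and RNA set free by broken cells enters every droplet. In acoels, stem cells called neoblasts supply new cells to the other tissues, and differentiated cells include muscle, nerve, gland, epidermal and digestive cells. The features counted here were identifiers of an assembled transcriptome with no gene name attached to any of them. No marker could therefore be looked up and no cell type is named. The label of high RNA content was checked only through the totals that chose the barcodes.

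Library 1 held 6581711 UMIs and library 2 held 34060611. The share of library 1 in high-UMI barcodes was 11.4% and that in comparison barcodes 9.20%. In library 2 these shares were 8.84% and 9.34%. The libraries stood apart in where their UMIs lay, since 1 feature, DN31732_c1_g3, took 9.05% of the high-UMI sum of library 2 and 0.595% of that of library 1. Over all barcodes with a UMI, 250856 in library 1 and 1481007 in library 2, 7605 barcode sequences occurred in both libraries. Of the high-UMI barcodes 0 did, and of the 7758 also 0. With so few shared sequences this is no check for RNA carried between libraries.

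The median high-UMI barcode held 671 UMIs in library 1 (quartiles 579.5 to 851, highest 10385) and 3949.5 UMIs in library 2 (quartiles 3176.75 to 5639.75, highest 20536). The median comparison barcode held 219 and 1306 UMIs in the same libraries. The minimum fell within a continuous range of totals. The 10 barcodes just inside it had 500 to 502 UMIs and the 10 just outside 497 to 499 in library 1. In library 2 they had 2703 to 2723 and 2676 to 2690 UMIs. Barcodes were chosen by their UMI totals, so every value below that comes from the same UMIs is a description with no test. Intervals given are exact 95% intervals for counting error only.

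With each barcode thinned at random to the lowest total of its library's comparison barcodes, high-UMI barcodes spread their UMIs over fewer features than comparison barcodes did. The median was 148 features in high-UMI barcodes of library 1 (quartiles 139 to 154), against 152 in comparison barcodes (145 to 157). For library 2 it was 507 features in high-UMI barcodes (400 to 611) and 621.5 in comparison barcodes (520.75 to 692). The quartile ranges overlapped in both libraries, and the difference of 4 features in library 1 was small beside them. Without thinning the order was the opposite, as the totals fix, with 511 and 190 features in library 1 and 1511.5 and 745 in library 2 for high-UMI and comparison barcodes. Among clusters (described below) with at least 10 barcodes of each class, high-UMI barcodes had the lower median after thinning in 19 of 22 in library 1 (median difference -4 features) and in 11 of 14 in library 2 (median difference -57 features).

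**Figure D1:**
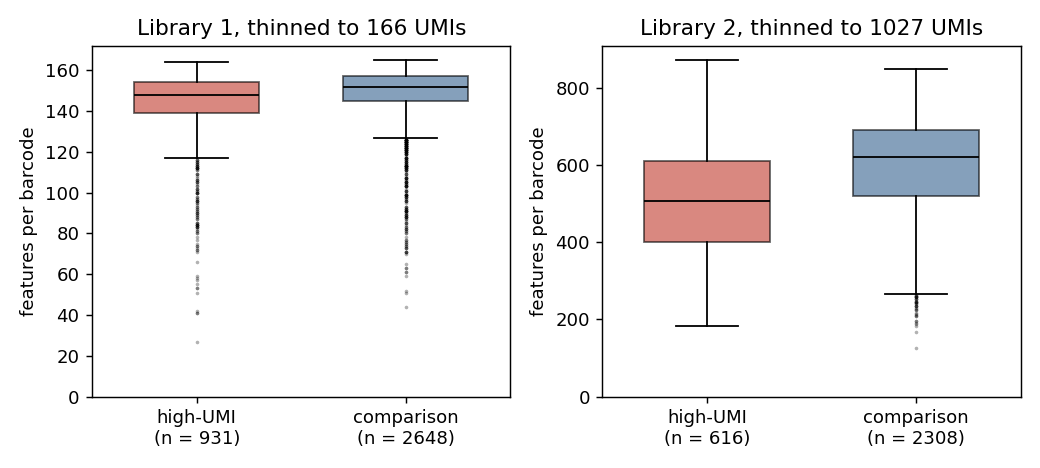
Number of features with a UMI per barcode after thinning (y axis) in high-UMI and comparison barcodes of each library, every barcode thinned to the lowest comparison total of its library. Medians were 148 features in high-UMI and 152 in comparison barcodes of library 1, and 507 and 621.5 in the same classes of library 2.

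Part of this narrower content lay in barcodes with over 10% of their UMIs in a single feature. In library 1 there were 64 such barcodes among the high-UMI ones (6.87%, interval 5.33 to 8.69%) and 86 among the comparison ones (3.25%, 2.606 to 3.996%). In library 2 there were 302 (49.0%, 45.0 to 53.1%) and 655 (28.4%, 26.5 to 30.3%). The leading feature differed between the libraries. DN24715_c0_g1 was first in library 1, with 26 high-UMI and 28 comparison barcodes. In library 2 DN31732_c1_g3 was first, with 237 high-UMI barcodes (38.5%) and 518 comparison barcodes (22.4%), and DN28401_c0_g1 followed with 13 and 9. Without the barcodes over 10%, the median difference in features was -3 in library 1 and -55.5 in library 2. A barcode with many UMIs in 1 feature has fewer left for others at equal depth. Such barcodes made up more of the high-UMI class, so a smaller difference without them was largely fixed in advance.

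DN24715_c0_g1 was the feature with most UMIs in the high-UMI barcodes of library 1. Its level there was 20710 CPM (UMIs of the feature per 1000000 summed UMIs of the class), against 6752 CPM in comparison barcodes. Library 2 had 4921 CPM of it in high-UMI and 2425 CPM in comparison barcodes. Its folds were 3.07 (interval 2.96 to 3.18) and 2.03 (1.97 to 2.09) in libraries 1 and 2. Fewer of the thinned high-UMI barcodes had a UMI of it, with 34.4% against 49.0% of comparison barcodes in library 1 and 16.4% against 30.1% in library 2. So the summed level was higher and the detection at equal depth was lower, in both libraries.

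Few barcodes carried that level. In library 1, 26 high-UMI barcodes with over 10% of their UMIs in DN24715_c0_g1 held 88.3% of its UMIs in high-UMI barcodes, and in library 2, 7 barcodes held 90.3%. In those for which it was the leading feature, it took a median of 52.9% (highest 74.2%) of a barcode's UMIs in high-UMI barcodes of library 1, against 16.6% (highest 48%) in comparison barcodes. In library 2 the medians were 29.2% (highest 65.6%) and 19.0% (highest 58.8%). The feature also counted towards the totals: without its UMIs 27 high-UMI barcodes of library 1 and 1 of library 2 fell below the minimum. With classes set on totals that leave its own UMIs out, its log2 fold in library 1 was -0.63. Without barcodes dominated by 1 feature, it was -0.84 in library 1 and -0.65 in library 2. This last change leaves out the barcodes that held 88.3% and 90.3% of its high-UMI UMIs, so a lower fold was largely fixed in advance.

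**Figure D2:**
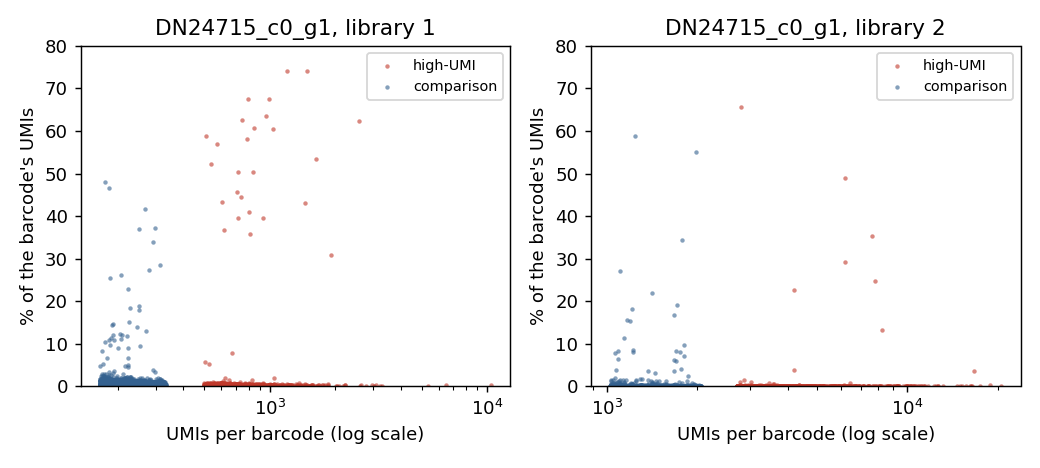
Share of a barcode's UMIs that fell on DN24715_c0_g1 (y axis, %) against the barcode's UMI total (x axis, log scale), with 1 point per high-UMI or comparison barcode of each library. Most points lie near 0, and 26 high-UMI barcodes of library 1 and 7 of library 2 lie above 10%.

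More generally, 68 high-UMI barcodes of library 1 (7.30%) and 108 of library 2 (17.5%) passed the minimum only with the UMIs of their single most abundant feature. Over the 10 features with most UMIs in both classes together, the thinned high-UMI barcodes held a median of 3.01% of their UMIs in library 1, against 4.22% in comparison barcodes. For library 2 it was 27.7% against 17.8%. The 10 features were taken in each library alone, and the folds of single abundant features are given below.

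The question which features agree in both libraries was put to 11092 features with at least 10 UMIs over both classes in each library. A feature was counted as higher or lower in a library at a 2-fold difference in CPM with an interval that excluded equality. In library 1, 303 features were higher in high-UMI barcodes (2.73% of those tested) and 481 lower (4.34%). In library 2, 197 were higher (1.78%) and 1867 lower (16.8%). Counted in both libraries were 47 higher features (0.424%) and 179 lower features (1.61%). Opposite directions were found for 48 features higher in library 1 and lower in library 2 (0.433%) and for 8 features of the reverse kind (0.0721%).

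Agreement was above the background of all features in both directions. Of the 481 features lower in library 1, 429 had a fold below 1 in library 2 (89.2%), where 69.6% of all features did. Their median log2 fold there was -0.81, against -0.29 over all features. Of the 303 features higher in library 1, 172 had a fold above 1 in library 2 (56.8%), against 30.4% of all features, and 47 were counted as higher (15.5%). Their median log2 fold was 0.10. In the other direction, the 197 features higher in library 2 had a median log2 fold of 0.40 in library 1, where all features had -0.12. Of these 197, 125 had a fold above 1 in library 1 (63.5%), against 39.6% of all features. Of the 1867 features lower in library 2, 1281 had a fold below 1 in library 1 (68.6%), against 60.4% of all features. Counted as lower in library 1 were 179 of the 1867 (9.59%). Their median log2 fold there was -0.30, the value of a feature with equal UMI counts in both classes.

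The CPM fold had the same sign in both libraries for 6769 features (61.0%). CPM and detection after thinning both had that sign for 4202 features (37.9%), 800 of them higher and 3402 lower. Detection had the sign of the fold in both libraries for 178 of the 179 lower features but for 34 of the 47 higher ones, and DN24715_c0_g1 was among those that differed. Over features, log2 folds of the libraries correlated with r = 0.22 and rho = 0.23. For the 3402 features of at least 100 UMIs it was r = 0.32. Features share libraries, barcodes and depth, and they are not independent replicates.

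**Figure D3:**
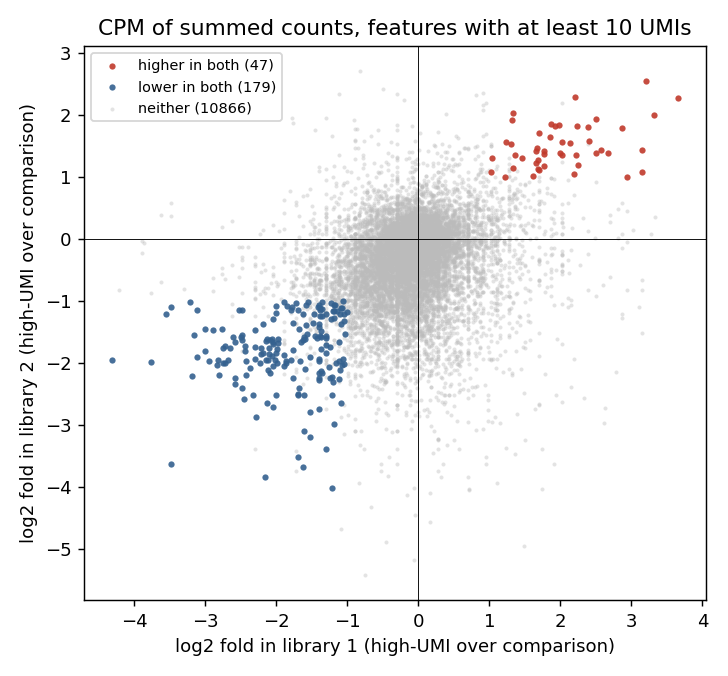
Log2 fold of CPM, high-UMI over comparison barcodes, in library 1 (x axis) and library 2 (y axis) for 11092 features. Colours mark the 47 features higher and the 179 lower in both libraries, and the cloud of all features is centred below 0, at -0.12 and -0.29.

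On the CPM scale the median log2 folds over all features were -0.12 and -0.29. Scaling by the trimmed mean of M values (TMM) moved these medians to 0.01 and 0.06, and 93 features were then higher and 106 lower in both libraries. All 47 higher features and 106 of the 179 lower ones were counted under both scalings. The folds below are on the CPM scale.

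The 47 higher features together made up 4.16% of the UMIs of high-UMI barcodes and 1.14% of those of comparison barcodes in library 1. In library 2 they made up 1.89% and 0.695%. Without DN24715_c0_g1, which alone held 2.07% and 0.675% in library 1, the others made up 2.09% of high-UMI and 0.464% of comparison UMIs in library 1, and 1.40% and 0.452% in library 2. For the most part no single barcode carried a feature, but a few barcodes together held a large part of some. The barcode with most UMIs of a feature held a median of 12.8% of its high-UMI UMIs in library 1 and 11.1% in library 2, and passed 50% for 0 features in library 1 and 1 in library 2. A median of 32 and 46 high-UMI barcodes had a UMI. Among features named below, the share of high-UMI UMIs in the 5 barcodes with most of them varied. In libraries 1 and 2 it was 67.2% and 87.5% for DN22219_c0_g2, and 64.3% and 80.9% for DN22546_c0_g1. It was lower for DN21635_c0_g1 (26.3% and 38.8%) and DN22417_c0_g1 (29.6% and 38.1%). Of the 47, 6 (12.8%) shared an assembly component with another of them. These pairs were DN22219_c0_g1 and g2, DN22417_c0_g1 and g4, and DN24044_c0_g1 and g2. Reads of such pairs can be split between them by the counting. Over all 11092 features, 4578 (41.3%) shared a component with another, but a longer list holds more such features by its length.

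Among the 34 higher features whose detection was also higher in both libraries, 10 were named for the largest lower fold of the libraries. The first was DN22219_c0_g2, at 167 CPM in high-UMI and 18.2 CPM in comparison barcodes of library 1, and at 23.9 and 4.09 CPM in library 2. Its folds were 9.20 (4.97 to 18.9) and 5.85 (3.21 to 11.5). It was rare, with a UMI in 22 of 931 and 11 of 616 high-UMI barcodes, and 1 barcode held 47.2% of its high-UMI UMIs in library 2.

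DN17630_c0_g2 reached 579 CPM in high-UMI barcodes and 126 CPM in comparison barcodes of library 1, and 253 and 51.9 CPM in library 2. The folds of 4.61 (3.61 to 5.97) and 4.89 (4.12 to 5.82) were close to each other. DN23727_c0_g2 had 428 against 42.9 CPM in library 1 and 374 against 93.7 CPM in library 2, with folds of 9.96 (6.67 to 15.5) and 3.996 (3.51 to 4.56). A UMI of DN23727_c0_g2 was found in 48 high-UMI barcodes (5.16%) and 20 comparison barcodes (0.755%) of library 1. After thinning, its detection in library 2 was nearly equal, at 4.71% of high-UMI and 4.68% of comparison barcodes. Without barcodes dominated by 1 feature its log2 fold in library 2 was 0.02, in place of 1.999, while in library 1 it was 2.83, in place of 3.32.

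DN22546_c0_g1 had 539 CPM in high-UMI barcodes of library 1, against 114 CPM in comparison barcodes. In library 2 it had 87.0 and 24.5 CPM. The pair DN22417_c0_g1 and DN22417_c0_g4 had folds of 3.79 and 3.96 in library 1 and of 3.56 and 3.59 in library 2. DN21635_c0_g1 had folds of 3.62 and 3.13, and DN27105_c1_g2 of 3.24 and 3.30. The remaining 2, DN25409_c1_g4 (18 and 31 high-UMI UMIs) and DN27471_c2_g3 (15 and 42), were sparse, with folds between 2.96 and 4.05 and wide intervals. For DN27471_c2_g3 the interval in library 1 ran from 1.15 to 21.8.

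Several of these folds changed when barcodes dominated by 1 feature were left out or when the UMI minimum was raised. In library 2 the first change leaves out 302 of 616 high-UMI barcodes, 237 of them led by DN31732_c1_g3. A changed fold there does not show that dominance by the feature itself carried it. Without dominated barcodes, 35 features were higher in both libraries, of which 22 were among the 47. In library 2 the log2 folds were then 0.95 for DN17630_c0_g2, 0.58 for DN21635_c0_g1, 0.61 for DN22417_c0_g1 and 0.06 for DN22417_c0_g4. For DN22219_c0_g2 the log2 fold in library 1 was 0.83, in place of 3.20. When the UMI minimum was multiplied by 2, DN27105_c1_g2 was lower in the remaining high-UMI barcodes of library 2, with a log2 fold of -1.82.

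The 179 lower features made up 0.455% of the UMIs of high-UMI barcodes and 1.48% of those of comparison barcodes in library 1. In library 2 they made up 1.32% and 4.98%. Of them, 16 (8.94%) shared a component with another, where 41.3% of the longer list of all features did. The named ones had few UMIs in high-UMI barcodes, since the rule takes the largest drops.

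DN31625_c1_g1 had 25.4 CPM in high-UMI and 124 CPM in comparison barcodes of library 1, and 10.3 and 75.1 CPM in library 2. Its folds were 0.205 (0.117 to 0.343) and 0.137 (0.0911 to 0.200). After thinning it was found in 0.107% of high-UMI and 1.17% of comparison barcodes of library 1, and in 1.14% and 4.29% in library 2. A single comparison barcode of library 2 held 100 of its 239 UMIs, and without each class's highest barcode its log2 folds were -4.37 and -2.23.

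DN25608_c1_g1 fell to 32.1 CPM in high-UMI barcodes of library 1, against 172 CPM in comparison barcodes, and to 23.9 CPM in library 2, against 109 CPM. Its folds of 0.187 (0.115 to 0.293) and 0.220 (0.168 to 0.284) had overlapping intervals. DN30673_c3_g2 had 22.9 against 105 CPM in library 2, found after thinning in 3.73% of high-UMI and 10.6% of comparison barcodes. In library 1 it rested on 3 and 22 UMIs, a fold of 0.110 (0.0212 to 0.367). DN25512_c0_g1 had folds of 0.167 and 0.198, on 7 and 34 UMIs in library 1 and 21 and 112 in library 2.

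DN24120_c1_g3, DN28447_c2_g5, DN32850_c0_g1 and DN22409_c0_g2 had folds between 0.167 and 0.211 in both libraries, with at most 20 UMIs in the high-UMI barcodes of either library. DN26515_c0_g3 had 1 UMI in the high-UMI barcodes of each library, against 9 and 13 in the comparison barcodes. Its folds were 0.0900 (0.00205 to 0.649) and 0.0813 (0.00191 to 0.541). DN23131_c0_g1 had 0 UMIs in the high-UMI barcodes of library 1 and 17 in the comparison barcodes. With a floor of 3 UMIs in place of 0 for the class in that library it was 7.0-fold lower. The interval put the drop at 5.10-fold or more. There were 6 and 29 UMIs of it in library 2.

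The most abundant features were mostly not counted in either direction. By their share of the high-UMI sums, the first 5 of library 1 were DN24715_c0_g1, DN32615_c2_g3, DN26402_c9_g1, DN31152_c0_g1 and DN31412_c0_g1. The first 5 of library 2 were DN31732_c1_g3, DN32615_c2_g3, DN30126_c0_g2, DN32615_c1_g1 and DN26935_c2_g1. Beside DN24715_c0_g1, 0 of them passed the 2-fold limit in either library on the CPM scale. TMM scaling changes this in library 2, where DN32615_c2_g3 had a log2 fold of 1.16, DN30126_c0_g2 of 1.19, DN32615_c1_g1 of 1.29, DN31152_c0_g1 of 1.16 and DN31412_c0_g1 of 1.04. In library 1 these 5 had log2 folds between 0.17 and 0.27 under TMM. DN31732_c1_g3 and DN26402_c9_g1 had negative log2 folds in library 1 on the CPM scale (-0.05 and -0.12) and positive ones under TMM (0.09 and 0.02).

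DN32615_c2_g3 made up 1.08% of high-UMI and 1.053% of comparison UMIs in library 1, a fold of 1.02 (0.989 to 1.06). In library 2 it made up 3.57% and 2.04%, a fold of 1.75 (1.74 to 1.77). The same contrast between libraries was seen in DN30126_c0_g2, with folds of 1.03 and 1.79, in DN32615_c1_g1, with 1.10 and 1.92, in DN31152_c0_g1, with 1.09 and 1.75, and in DN31412_c0_g1, with 1.07 and 1.61. DN31732_c1_g3 had 0.595% of high-UMI and 0.615% of comparison UMIs in library 1, and 9.05% and 7.002% in library 2. DN26935_c2_g1 took 2.47% of high-UMI and 3.25% of comparison UMIs in library 2, where its fold was 0.761, and its fold in library 1 was 1.08. The difference between libraries has 1 library on each side and was not tested.

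A further list held 14 features that led clusters of cells or were otherwise singled out in earlier work on these data. It was chosen with those results known, and it supports nothing by itself. Of the 14, 13 passed the filter, 2 were higher in both libraries and 2 lower in both. Their median log2 folds were 0.40 and -0.28, against -0.12 and -0.29 over all features.

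The largest fold among them was that of DN22219_c0_g1. It had 4070 CPM in high-UMI barcodes and 324 CPM in comparison barcodes of library 1, a fold of 12.6 (10.9 to 14.6). In library 2 it had 366 and 75.4 CPM, a fold of 4.86 (4.22 to 5.61). Detection after thinning went the other way, with 2.69% against 4.08% in library 1 and 2.11% against 2.64% in library 2. Of the high-UMI barcodes of library 1, 9 had it as their leading feature with over 10% of their UMIs, at a median of 28.3%. Without barcodes dominated by 1 feature its log2 fold in library 1 was 1.30.

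DN26570_c0_g1 had 140 against 24.8 CPM in library 1 and 1073 against 281 CPM in library 2, with folds of 5.67 (3.28 to 10.5) and 3.82 (3.55 to 4.12). It was present in 13 high-UMI barcodes of library 1 and 35 of library 2. With the UMI minimum multiplied by 2 its log2 fold in library 2 was -2.39, in place of 1.93. The 2 listed features lower in both libraries were DN22494_c0_g1, with folds of 0.470 (0.248 to 0.867) and 0.160 (0.0984 to 0.249), and DN23946_c0_g1, with folds of 0.249 (0.0592 to 0.806) and 0.176 (0.0719 to 0.376).

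Single barcodes decided 2 of the listed values. DN20392_c0_g1 had 1333 CPM in high-UMI and 391 CPM in comparison barcodes of library 1, but 1 barcode held 69.5% of the high-UMI UMIs. Without each class's highest barcode its log2 fold was 0.18, in place of 1.77. For DN23294_c1_g2 the highest barcode held 58.6%, and the log2 fold was 0.58 without it, in place of 1.73. In library 2 both had folds of about the same size, 1.502 and 1.54, and highest barcodes with 49.0% and 54.0% of the UMIs. There the log2 folds without the highest barcodes were -0.08 for DN20392_c0_g1 and -0.22 for DN23294_c1_g2.

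DN31468_c1_g5 and DN24391_c1_g2 were lower in library 2, at 55.1 against 217 CPM and at 29.2 against 123 CPM. In library 1 they were sparse, with 7 against 10 UMIs and 17 against 18 UMIs, and their intervals included equality. DN29924_c0_g1 had folds of 2.49 (1.33 to 4.92) and 1.58 (1.37 to 1.82), and was counted as higher in library 1. In library 2, 1 barcode held 56.6% of its high-UMI UMIs. DN32476_c1_g1 had 0 UMIs in both classes of library 1, and 190 against 58.1 CPM in library 2. DN20394_c0_g1, DN29970_c0_g1, DN27834_c0_g1 and DN30860_c0_g6 were counted in neither library.

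The listed features had been singled out in 10 groups, and barcodes with UMIs of at least 2 groups were counted. After thinning, 2 of 931 high-UMI barcodes of library 1 (0.215%, interval 0.0260 to 0.774%) had UMIs of at least 2 groups, against 30 of 2648 comparison barcodes (1.13%, 0.766 to 1.61%). In library 2 there were 27 of 616 (4.38%, 2.91 to 6.31%) and 294 of 2308 (12.7%, 11.4 to 14.2%). In library 1 the order depended on the draw: with another random thinning the shares were 1.18% in high-UMI and 1.10% in comparison barcodes. In library 2 they were 6.98% and 13.1% with that draw. In the first draw, UMIs of at least 1 group were found in 13.2% of high-UMI and 16.5% of comparison barcodes of library 1. For library 2 these shares were 33.3% and 54.9%. The shares with at least 2 groups depend on these, so by themselves they do not measure mixed cells. Doublet scores of Scrublet had medians of 0.0561 in high-UMI and 0.0673 in comparison barcodes of library 1, and of 0.0408 and 0.0427 in library 2. Among the barcodes with the highest scores of each library were 14 high-UMI barcodes (1.504%) and 111 comparison barcodes (4.19%) of library 1, and 22 (3.57%) and 52 (2.25%) of library 2. Without them, 45 features were higher and 200 lower in both libraries.

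Barcodes were clustered after thinning all of them, in both libraries, to the lowest comparison total of library 1, so that depth did not differ between the classes or libraries, which gave 26 clusters. The same UMIs chose the barcodes, made the clusters and gave the levels, so shares are a description. Of the 26 clusters, 1 held a larger share of high-UMI than of comparison barcodes in both libraries, with an interval of the ratio above 1, and 3 held a smaller share in both. Under other clusterings 2 to 4 clusters held a smaller share in both: 2 at resolutions 0.5 and 2.0 and without high doublet scores, 3 with another thinning or without the counted features, and 4 with 15 components. In 2 clusters the share was larger in library 1 and smaller in library 2, in 1 cluster the reverse, and 10 clusters passed in neither library.

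The cluster with the larger share was cluster 24, led by DN23727_c0_g2. It held 30 of 931 high-UMI barcodes (3.22%) and 11 of 2648 comparison barcodes (0.415%) of library 1, a ratio of 7.76 (3.78 to 17.2). In library 2 it held 22 of 616 (3.57%) and 28 of 2308 (1.21%), a ratio of 2.94 (1.61 to 5.34). When clusters were made without the 226 features counted in both libraries, an alternative chosen after seeing the data, the cluster that took up 100 of its 108 barcodes held 43 high-UMI and 44 comparison barcodes of library 1 and 26 and 48 of library 2. The ratios there were 2.78 (1.78 to 4.33) and 2.03 (1.21 to 3.34). Over the 5 planned changes to the clustering, the best matching cluster had ratios between 3.38 and 11.8 in library 1 and between 2.28 and 3.12 in library 2.

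The clusters with the smaller shares were 3, 7 and 15. Cluster 7 held 1.61% of high-UMI and 6.27% of comparison barcodes in library 1, and 1.62% and 6.20% in library 2. Its ratios of 0.257 (0.141 to 0.436) and 0.262 (0.123 to 0.496) were alike in the libraries. Cluster 15 held 0.537% against 3.55% in library 1 and 0.649% against 2.60% in library 2. Cluster 3 held 2.58% against 4.19% in library 1 and 5.36% against 16.3% in library 2. In library 1 its ratio was 0.615 (0.378 to 0.963), and in the best matching cluster of each of the 5 planned changes the interval included 1, with ratios between 0.689 and 0.903. Its ratios in library 2 were between 0.245 and 0.630 in these changes, each with an interval below 1. For clusters 7 and 15 the intervals were below 1 in both libraries in all 5 planned changes. Without the counted features, cluster 15 had no close match, since the best one took up 41 of its 177 barcodes. That of cluster 7 took up 257 of its 379 barcodes, with ratios of 0.361 (0.263 to 0.487) and 0.537 (0.376 to 0.750). Cluster 2 went opposite ways, with 5.37% of high-UMI and 9.63% of comparison barcodes in library 1, but 21.8% and 11.8% in library 2.

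**Figure D4:**
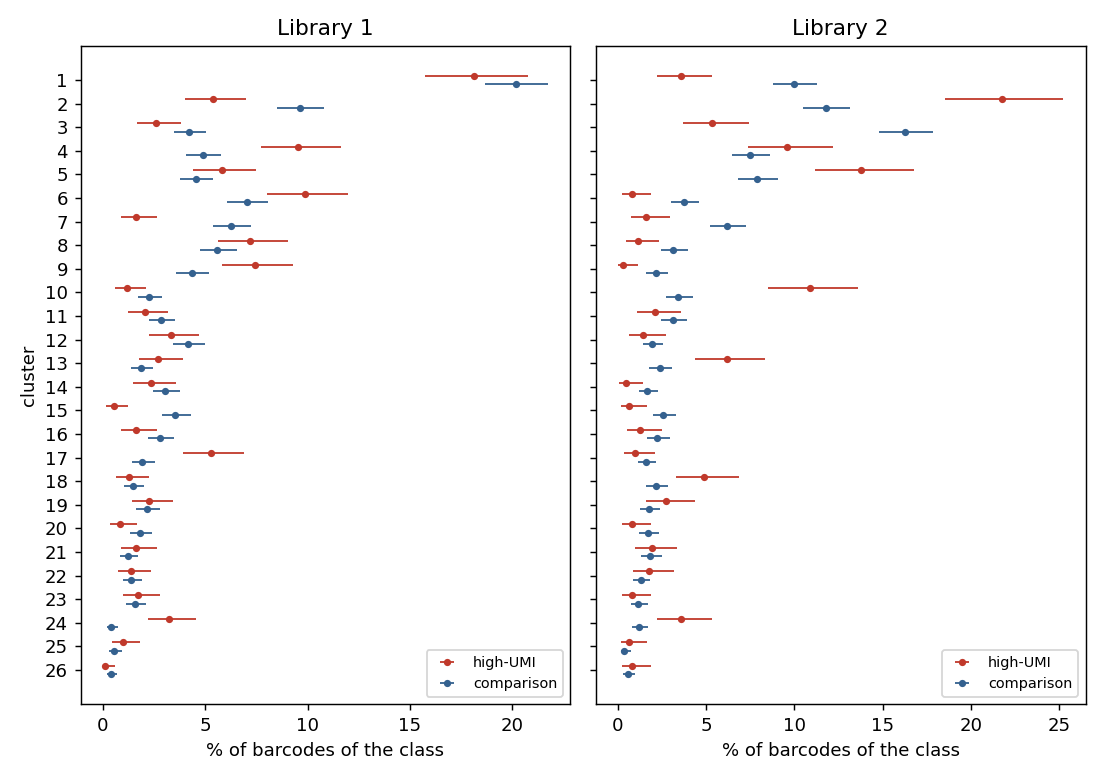
Share of the high-UMI and of the comparison barcodes (x axis, % of barcodes of the class) in each of 26 clusters (y axis), in libraries 1 and 2, with exact 95% binomial intervals as bars. Cluster 24 lies higher for high-UMI barcodes in both libraries (3.22% and 3.57%, against 0.415% and 1.21%), and clusters 3, 7 and 15 lie lower.

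Where the higher features lay among the clusters is a description only, since the same counts were not made over all features. For 35 of the 47, the cluster with the largest part of their high-UMI UMIs was the same in both libraries, and 32 had over 50% of those UMIs there in both. These 35 were 17 in cluster 24, 6 in cluster 21, 4 in cluster 18, 3 each in clusters 5 and 19, and 2 in cluster 4. Over the 47, the leading cluster held a median of 76.6% of them in library 1 and 72.1% in library 2. DN23727_c0_g2 had 93.4% and 93.9% of its high-UMI UMIs in cluster 24, and DN17630_c0_g2 88.5% and 95.02%. DN26570_c0_g1 had 97.1% and 96.1% in cluster 18, and DN22219_c0_g1 84.6% and 95.2% in cluster 21. DN24715_c0_g1 was spread more, with its largest parts in different clusters, 24.4% in cluster 2 of library 1 and 33.1% in cluster 10 of library 2.

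For the lower features the UMIs of comparison barcodes were used, so their counts cannot be set against those of the higher features. They too have no background over all features. Of the 179, 103 had the same leading cluster, that with the largest part of their comparison UMIs, in both libraries, and 32 had over 50% of those UMIs there in both. The leading cluster was cluster 7 for 40 of the 103, cluster 15 for 28 and cluster 1 for 15, with a median over the 179 of 40.9% and 38.1% of a feature's UMIs in its leading cluster. DN31625_c1_g1 had 88.0% and 52.3% in cluster 15. In library 1 that cluster also led for DN24120_c1_g3, DN28447_c2_g5, DN32850_c0_g1, DN22409_c0_g2, DN30673_c3_g2, DN23131_c0_g1 and DN25608_c1_g1, with 76.5% to 94.1% of their comparison UMIs. Other clusters led for the named DN25512_c0_g1 and DN26515_c0_g3. In library 2 other clusters led for DN30673_c3_g2 and DN23131_c0_g1 too. For the rest of those listed, cluster 15 held 19.1% to 73.3% there. When comparison barcodes were weighted to the cluster makeup of the high-UMI barcodes, an alternative chosen after seeing the data that covers 97.5% and 89.8% of them, 15 features were higher and 57 lower in both libraries. Of these, 13 and 41 were among the 47 and 179. For DN23727_c0_g2 the log2 folds were then 1.02 and 0.96, in place of 3.32 and 1.999. DN22219_c0_g1 had 3.59 and 2.44, in place of 3.65 and 2.28. DN31625_c1_g1 had -0.89 and -1.77, in place of -2.29 and -2.87.

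Over ranges of totals above the comparison barcodes, the lower features had a smaller share at each step, while the higher ones did not keep growing. In library 1 the 47 higher features held 1.14% of UMIs in comparison barcodes, 3.05% at 500 to 999 UMIs, 8.07% at 1000 to 1999 UMIs and 4.22% in the 18 barcodes above. In library 2 they held 0.695% in comparison barcodes, 1.78% in the lowest high-UMI range, 2.45% in the next and 0.699% in the 24 barcodes with most UMIs. The 179 lower features held 1.48% in comparison barcodes, 0.527%, 0.323% and 0.154% over the same ranges of library 1, and 4.98%, 1.81%, 0.801% and 0.492% over those of library 2. Without DN24715_c0_g1 the higher features held 0.464%, 1.42%, 4.74% and 1.43% over these ranges of library 1. The shares in library 2 were then 0.452%, 1.58%, 1.402% and 0.4997%, so that the peak lay in the lowest high-UMI range. The values of the highest range rest on few barcodes in both libraries. Below the comparison range, at 83 to 165 UMIs in library 1, the higher features held 1.60% (0.650% without DN24715_c0_g1) and the lower ones 1.24%. At 513 to 1026 UMIs in library 2 they held 0.599% (0.385%) and 10.4%. There the lower features thus had a smaller share than in comparison barcodes in library 1 and a larger one in library 2. The higher features went the other way in each library.

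**Figure D5:**
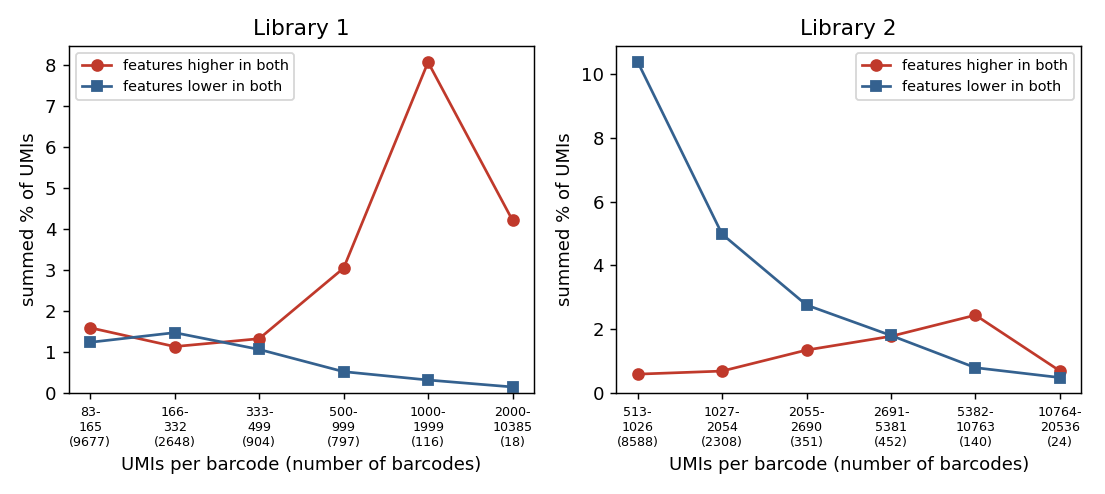
Summed share of UMIs (y axis, %) of the 47 features higher and the 179 features lower in both libraries over ranges of UMIs per barcode (x axis, low to high, with the number of barcodes in each). The share of lower features falls from the comparison range upward in both libraries, and the share of higher features peaks at 8.07% and 2.45% before the highest range, DN24715_c0_g1 included.

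Empty droplets, taken as barcodes within 20% of the most common total of 59 UMIs in library 1 and 311 in library 2, gave values to set beside these. Over features, the Spearman coefficient with their sum was 0.921 for high-UMI and 0.907 for comparison barcodes in library 1, and 0.891 and 0.859 in library 2. The median log2 ratio of empty droplets to comparison barcodes was 0.77 and 0.07 for the 47 higher features in libraries 1 and 2, -0.71 and -0.81 for the 179 lower ones, and -0.09 and -0.22 over all features. These ratios share the comparison barcodes with the folds above, and the part of free RNA in the result was not tested.

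One comparison did not use the UMIs that chose the barcodes. A random 50% of the UMIs of each barcode set the classes, at the limits divided by 2, and the other 50% was summed per class and library and tested with edgeR's quasi-likelihood test, with library as a block and Benjamini-Hochberg adjustment (2 libraries a class). At an adjusted p under 0.05, 136 of 10898 features were higher in high-UMI barcodes (1.25%) and 193 lower (1.77%), and 1405 features had an unadjusted p under 0.05. The calls depended on the draw and the tool: another random split gave 162 calls, 150 of them shared. DESeq2 gave 42 calls among 3292 features with an adjusted p. Without the library term edgeR gave 0 calls, with 65 features at an unadjusted p under 0.05. The split chose 945 high-UMI and 2723 comparison barcodes of library 1 and 613 and 2325 of library 2. It keeps the tested UMIs out of the choice of barcodes, but both parts of the UMIs come from the same barcodes. A feature that fills a barcode thus raises the total that chose it and is high in the tested part too. The features named here were also chosen on the whole counts, tested UMIs included, so their p-values are no separate support.

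On the held-out UMIs DN23727_c0_g2 had a log2 fold of 2.68 (edgeR adjusted p = 1.13e-10), DN22546_c0_g1 of 2.51 (2.23e-10) and DN22219_c0_g1 of 3.08 (7.45e-10). Of the 10 named higher features, DN25409_c1_g4 (edgeR adjusted p = 0.175) and DN27471_c2_g3 (0.0681) did not pass. DN25608_c1_g1 had a log2 fold of -2.25 (edgeR adjusted p = 2.32e-09), DN31625_c1_g1 of -2.23 (6.63e-08) and DN30673_c3_g2 of -2.30 (1.06e-06). Among the 10 named lower features, DN22409_c0_g2 did not pass (adjusted p = 0.206) and DN26515_c0_g3 had too few UMIs to be tested. DN24715_c0_g1 had a log2 fold of 1.504 and did not pass (adjusted p = 0.191). The other most abundant features had adjusted p from 0.747 to 0.987.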

How the data were processed

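The deposited matrix holds raw UMI counts per feature and barcode for both libraries, written by Cell Ranger 3.0.2 per the submitters' processing notes. Per the file headers it lists every barcode, empty droplets included, so the authors filtered no cells here. The barcode suffix, a label of type other, was matched to the run number in the deposited sample titles. The reference, the aligner settings and any equalising of depth are not given in the sources used here. Per the deposited file, features are Trinity identifiers (prefix TRINITY_ left out here), 23786 in all. Columns of other samples numbered 0. Sequences of the features were not used here.

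The members and lists were chosen with earlier results of these data known. Comparison barcodes had 166 to 332 UMIs in library 1 and 1027 to 2054 in library 2. Counts were summed per class and library and scaled to CPM. Features with at least 10 UMIs over both classes in each library were kept. Exact conditional 95% intervals of the fold come from Poisson counts. Barcodes were thinned without replacement to 166 and 1027 UMIs. Named features were, by rule, the 10 higher and 10 lower ones with the largest smaller fold of the libraries and the same direction in detection, the 5 with most UMIs in each library, and 14 listed ones. DN28401_c0_g1 and the pair DN24044_c0_g1 and g2 were named after their values were seen. Clusters were made as follows: all barcodes were thinned to 166 UMIs, scaled to 10000 and log-transformed. The 2000 most variable features were centred within each library (limit 10 SD), and 30 components, 15 neighbours and the Leiden algorithm (leidenalg 0.10.2, resolution 1.0, scanpy 1.11.5) followed. Scrublet's automatic threshold marked 0% and 0.0305% of barcodes and so had not worked. The 161 and 86 barcodes with the highest scores (3.59% and 2.63%) were removed only as an alternative. Held-out sums were tested with edgeR 4.0.16 in R 4.3.3 (default filter, TMM) and, as an alternative, DESeq2 1.42.0. On simulated sums of the held-out comparison with 10733 features, edgeR called 76 of 93 features changed 4-fold, 6 of 96 changed 2-fold and 2 unchanged ones. The simulation gave every feature the same dispersion and the same share in both libraries, unlike the measured libraries. These counts are therefore no error rate for the measured comparison. The replicate numbers 1 and 2 are the libraries, and the library is the block.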

Additional observations from a re-analysis of the deposited data

Results flagged for a closer look

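UMIs of barcodes between the classes enter no comparison above. They made up 5.52% of the UMIs of library 1 (904 barcodes of 333 to 499 UMIs) and 2.39% of those of library 2 (351 barcodes of 2055 to 2690 UMIs), which is signal outside the main measurement. In these barcodes the 47 higher features had a summed share of 1.33% in library 1 and of 1.35% in library 2, against 1.14% and 0.695% in the comparison barcodes. The 179 lower features held 1.07% and 2.76%, against 1.48% and 4.98%. The values lay between those of the high-UMI and the comparison barcodes in both libraries for both lists. Without DN24715_c0_g1 the higher features held 0.744% and 1.06%, against 0.464% and 0.452% in the comparison barcodes. Single features varied: DN22219_c0_g1 had 1343 CPM there in library 1 and 160 CPM in library 2, between the classes. In library 1, 4 named features of the 47 lay below both classes: DN24715_c0_g1 with 5871 CPM, DN22546_c0_g1 with 77.1 CPM, DN21635_c0_g1 with 104.6 CPM and DN22417_c0_g1 with 60.6 CPM. In library 2, DN25409_c1_g4 with 14.8 CPM and DN22546_c0_g1 with 133 CPM lay above both.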

How the results depend on the processing

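The cause of each change below was not tested, except that a stricter fold or filter leaves fewer features by construction. Leaving out dominated barcodes also takes out most high-UMI UMIs of DN24715_c0_g1. The alternatives that left out each feature's highest barcode, weighted the clusters, clustered without counted features or left 3 features off the list were chosen after seeing the data. Features higher and lower in both libraries (47 and 179) numbered 93 and 106 with TMM scaling, 119 and 598 with the UMI minimum multiplied by 2, 15 and 57 weighted to the clusters, 106 and 450 at 1.5-fold and 14 and 78 at 3-fold. With at least 30 UMIs 111 were lower. Counted in a single library they numbered 197 to 303 and 481 to 1867. Without barcodes dominated by 1 feature the counts were 35 and 173, but these shared 22 and 137 with the main ones. The correlation of folds (0.22) was 0.12 with no filter, 0.36 with the minimum multiplied by 2 and 0.096 weighted to the clusters. Calls on held-out UMIs (329) were 42 with DESeq2, 162 with another split and 0 with no replicate block. The median difference in features (-4 and -114.5) was -11.5 in library 1 with the minimum multiplied by 2, and in library 2 -55.5 without dominated barcodes and -20 when thinned to the lowest comparison total of library 1. Clusters with a larger high-UMI share in both libraries (1) numbered 2 at resolutions 0.5 and 2.0 and without high doublet scores, 3 with 15 components, 3 without the counted features, and 5 to 6 in a single library. The difference in barcodes with 2 listed groups (-0.92 and -8.36 percentage points) reversed in library 1 to 0.086 with another thinning. It was 0 and -0.28 with at least 2 UMIs per feature, and -0.076 and -1.73 without 3 features. Named log2 folds that had passed the 2-fold limit with their interval changed sign as follows. Without dominated barcodes, DN24715_c0_g1 had -0.84 and -0.65 in libraries 1 and 2, and in library 1 DN20392_c0_g1 had -0.96 and DN23294_c1_g2 -0.80. With classes set without its own UMIs DN24715_c0_g1 had -0.63 in library 1. With the minimum multiplied by 2, DN27105_c1_g2 had -1.82 and DN26570_c0_g1 -2.39 in library 2, and DN29924_c0_g1 had -1.30 in library 1. Folds that had not passed the limit also changed sign, among them, in library 2, DN20392_c0_g1 (-0.08) and DN23294_c1_g2 (-0.22) without the highest barcodes and DN27834_c0_g1 (0.25) and DN30860_c0_g6 (0.07) with TMM. The number of features with the same direction in both measures stayed within 1.5 times its value in every alternative run on it, except for those weighted to clusters, where it was not computed. Depth limits library 1 most, where comparison barcodes had a median of 219 UMIs.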
